A study of Mus musculus with 21 samples.

Results

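The homeobox cofactor Hopx and 9 transcription factors that shape effector T cells were followed across 21 libraries of mouse Hepa1-6 liver tumours. The 10 genes, of 55487 gene identifiers in the count table, were taken by symbol: Hopx, Tbx21, Eomes, Prdm1, Id2, Id3, Zeb2, Runx3, Batf and Irf4. Hopx was chosen by a measured value, the difference between its responses to checkpoint antibodies in WT and B-depleted tumours in an earlier look at these counts, so its changes are given as a description, without a test. The other 9 are taken as listed for their known roles, since no measured value is recorded as the reason. They were chosen with earlier results of these data known, and their tests come from a fit over all genes.

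Hepa1-6 is a mouse hepatoma cell line, and the tumours grew in C57BL/6 mice. Messenger RNA was sequenced from 4 groups: WT mice given isotype antibody (n = 5), WT mice given anti-PD1 with anti-CTLA4 (n = 5), B-cell-depleted mice given isotype antibody (n = 6) and B-cell-depleted mice given both checkpoint antibodies (n = 5), called the combination here. Anti-PD1 and anti-CTLA4 block inhibitory receptors of T cells, and the series asks what B cells contribute to the response. The labels do not say how B cells were removed, how old the mice were, or whether each library came from a separate animal, so p-values measure the spread between these samples. Total counts ran from 9.52 to 19.17 M per library, and levels are given as CPM, counts scaled to 1 M reads of the library, of which 1 stands for about 9.52 reads at the lowest depth.

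Effector T cells are built by a small circuit of factors. The T-box factors T-bet (encoded by Tbx21) and eomesodermin (Eomes) act with Runx3, Blimp-1 (Prdm1), Id2 and Zeb2 on genes of killing and terminal differentiation, Batf and Irf4 pair downstream of the T-cell receptor, and Id3 is linked to naive and memory cells. Hopx is a small homeodomain protein that does not bind DNA itself and is found in differentiated T cells, among other cell types. Several of these genes are also used outside T cells: Zeb2 in macrophages and mesenchymal cells, Irf4 in B-lineage and dendritic cells, Prdm1 in plasma cells and macrophages, and Id2 and Id3 in many tissues.

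All 10 genes had promoter windows in RefSeq (GRCm38.p6), each reaching from 250 bases before to 50 bases after an annotated start, 15 windows in all. Windows of Hopx, of both T-box genes, and of Runx3 and Batf are printed as examples. Those of Zeb2 and Irf4, which also rose in WT tumours as described further on, are not printed. The sequences run 5′ to 3′ on the strand of the gene, and capitals mark a Runx core (TGTGGT, or ACCACA on the other strand), an E-box bound by Zeb proteins (CACCTG or CAGGTG) or a paired GAAA motif (GAAA, NN and GAAA in a row). The Hopx window shown is the upstream one of its pair, chr5:77115074-77115373 on the minus strand, with no capitals. Tbx21 lies at chr11:97115282-97115581 on the minus strand, Eomes at chr9:118477939-118478238 on the plus strand, the upstream Runx3 window at chr4:135120395-135120694 on the plus strand and Batf at chr12:85686470-85686769 on the plus strand.
Hopx: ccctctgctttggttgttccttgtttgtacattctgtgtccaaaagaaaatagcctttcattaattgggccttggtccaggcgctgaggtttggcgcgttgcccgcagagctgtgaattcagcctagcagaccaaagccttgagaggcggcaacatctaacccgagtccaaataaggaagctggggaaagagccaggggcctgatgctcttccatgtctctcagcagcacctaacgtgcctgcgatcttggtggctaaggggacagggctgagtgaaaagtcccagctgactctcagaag
Tbx21: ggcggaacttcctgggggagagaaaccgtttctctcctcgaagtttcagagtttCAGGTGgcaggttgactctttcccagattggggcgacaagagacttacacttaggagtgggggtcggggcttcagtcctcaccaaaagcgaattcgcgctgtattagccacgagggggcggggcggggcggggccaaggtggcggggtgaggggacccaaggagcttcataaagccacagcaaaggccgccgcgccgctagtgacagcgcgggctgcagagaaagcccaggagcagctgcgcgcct
Eomes: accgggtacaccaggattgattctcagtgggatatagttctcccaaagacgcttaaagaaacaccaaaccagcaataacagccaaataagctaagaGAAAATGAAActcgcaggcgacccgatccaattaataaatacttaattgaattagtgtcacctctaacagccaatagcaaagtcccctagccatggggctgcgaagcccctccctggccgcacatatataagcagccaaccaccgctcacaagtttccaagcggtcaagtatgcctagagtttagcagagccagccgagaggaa
Runx3: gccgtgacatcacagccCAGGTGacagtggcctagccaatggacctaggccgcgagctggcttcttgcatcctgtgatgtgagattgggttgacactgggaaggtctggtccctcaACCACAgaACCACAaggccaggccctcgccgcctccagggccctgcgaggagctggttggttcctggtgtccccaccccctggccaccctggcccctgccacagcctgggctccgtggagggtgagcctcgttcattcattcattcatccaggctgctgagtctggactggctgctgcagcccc
Batf: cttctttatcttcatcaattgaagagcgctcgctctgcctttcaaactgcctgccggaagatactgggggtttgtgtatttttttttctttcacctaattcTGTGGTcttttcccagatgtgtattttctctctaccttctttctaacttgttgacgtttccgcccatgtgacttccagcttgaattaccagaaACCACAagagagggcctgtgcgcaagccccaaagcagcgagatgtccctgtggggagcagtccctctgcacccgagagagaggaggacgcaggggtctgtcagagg

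Motifs were searched on both strands in all 15 windows and in all 32817 RefSeq windows of the same length. The Runx core was in 2 of 15, the Runx3 and Batf windows printed above, each of which held it at 2 places, against 16.8% of all windows. CACCTG was in 3 of 15 (Tbx21, Prdm1 and Runx3) against 20.2%, the AP-1 motif TGANTCA in 2 of 15 (Prdm1 and 1 window of Zeb2) against 7.81%, and the paired GAAA motif in 1 of 15 (Eomes) against 3.43%. The T-box motif TCACACC was in 0 of 15 windows against 3.98% of all, which says only that these letters are not in these windows. A match is a description of the letters and not a bound site.

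The genes span a wide range of abundance, here given as mean CPM per kilobase of exon over the 21 libraries. Id2 was the highest at 61.6, followed by Id3 at 31.8, Zeb2 at 22.3, Prdm1 at 14.1 and Runx3 at 6.83. Hopx (4.27), Batf (3.53), Irf4 (3.18), Tbx21 (2.26) and Eomes (1.67) were the low genes. All 10 passed the filter on low counts, and the lowest count of any of them in any library was 21, for Batf. Reads from antisense genes that overlap Hopx, Eomes, Zeb2 and Runx3 could be mixed in, since the strand setting of the counting is not given in the sources used here: these antisense genes hold 2.47%, 1.59%, 0.665% and 0.0909% of the counts of the gene they overlap.

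In WT tumours the combination raised 6 of the 9 tested factors, lowered 1 and left Id2 and Prdm1 below the threshold. Tbx21, Eomes and Batf rose between 3.31- and 4.04-fold, Zeb2, Irf4 and Runx3 between 2.26- and 2.67-fold, and Id3 fell to 0.707 of its isotype level. In B-depleted tumours none of the 9 passed, and the 6 factors raised in WT tumours had positive but smaller changes. The count of 7 in WT tumours stands against 50% of all 19061 tested genes called there (25% higher, 25% lower), and the 0 of 9 in B-depleted tumours against 0.341%. The plot of levels by library shows every measured value.

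**Figure D1:**
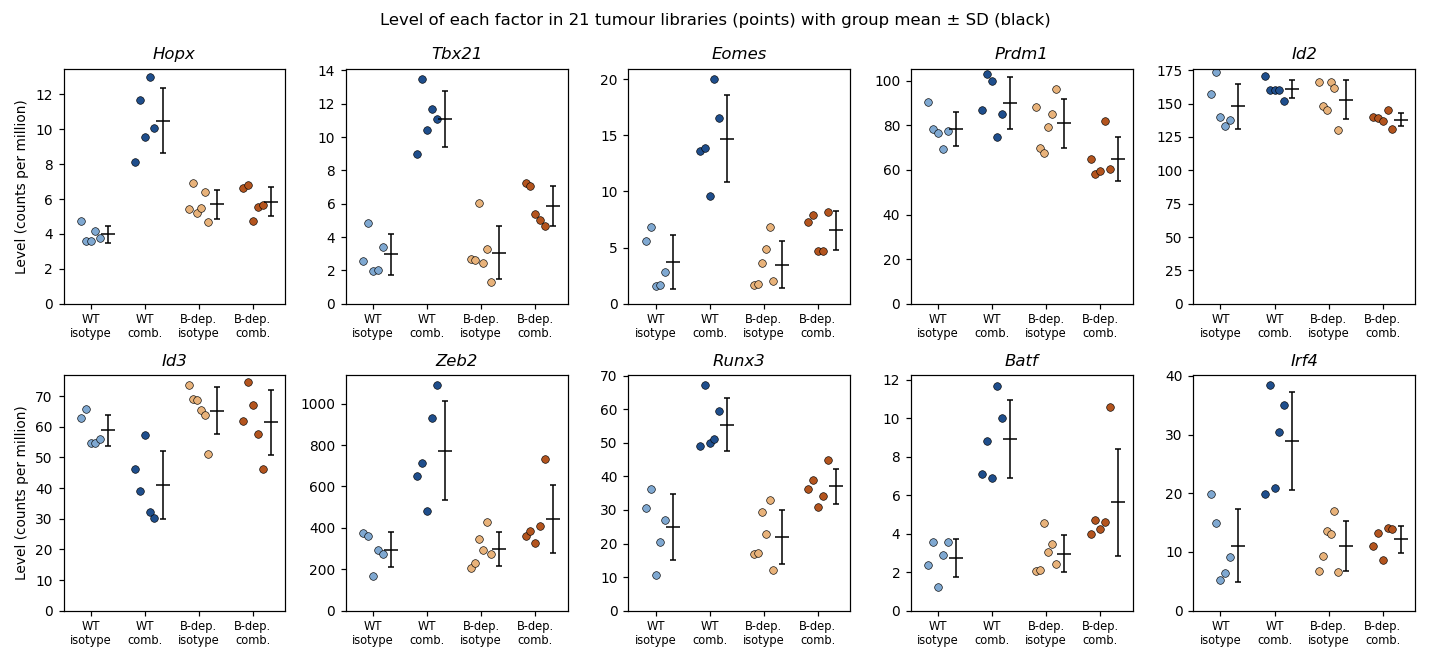
Level in CPM (y axis, from 0) of each of the 10 genes in the 4 groups (x axis), 1 point per library, with the group mean ± SD in black. WT combination libraries of Tbx21, Eomes, Zeb2, Runx3, Batf and Hopx all lie above every WT isotype library, while all 10 genes overlap between the 2 B-depleted groups.

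Hopx stood at 4.75, 3.59, 3.59, 4.18 and 3.75 CPM in the WT isotype libraries and at 8.15, 11.7, 9.56, 13 and 10.1 CPM in the WT combination libraries. In B-depleted isotype libraries the lowest, median and highest were 4.70, 5.48 and 6.93 CPM, and the B-depleted combination libraries read 6.62, 6.78, 4.76, 5.52 and 5.64 CPM. Every WT combination library was above all other 16 libraries, and the B-depleted groups overlapped fully. The WT change was 1.42 ± 0.15 on the log2 scale (2.67-fold) and the B-depleted change 0.06 ± 0.14, a difference of -1.36 ± 0.20.

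The order of Hopx group means was WT combination (10.5 ± 1.88 CPM, n = 5), B-depleted combination (5.86 ± 0.834, n = 5), B-depleted isotype (5.70 ± 0.818, n = 6) and WT isotype (3.97 ± 0.497, n = 5). The 2 B-depleted groups, neighbours in this order, did not differ beyond their spread. The isotype groups differed too: B-depleted isotype was 0.50 ± 0.14 above WT isotype on the log2 scale, and 1 of its 6 libraries, at 4.70 CPM, lay within the WT isotype range. Under the combination B-depleted tumours were 0.86 lower than WT tumours on the log2 scale (0.552-fold), with no overlap. These 4 differences reuse the same 4 groups and are not separate observations.

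Tbx21, whose product T-bet drives interferon-gamma and cytotoxic genes, read 2.59, 4.86, 1.94, 2.00 and 3.42 CPM in WT isotype and 9, 13.5, 10.4, 11.7 and 11.1 CPM in WT combination libraries. B-depleted isotype libraries ran from 1.3 through a median of 2.66 to 6.05 CPM, and B-depleted combination libraries read 7.25, 7.09, 5.36, 5.04 and 4.64 CPM. The WT groups did not overlap, and of the B-depleted combination libraries 2 of 5 were above every isotype library. In WT tumours Tbx21 rose by 1.94 ± 0.29 (log2; edgeR quasi-likelihood adjusted p = 0.000102). In B-depleted tumours the change was 0.97 ± 0.28 (95% interval 0.39 to 1.56, adjusted p = 0.131 by edgeR), and 1 library decided that call: without B-depleted isotype replicate 3, which held the 6.05 CPM, it was 1.26 (adjusted p = 0.0167 by edgeR).

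Eomes, the second T-box factor, was at 5.63, 6.85, 1.59, 1.66 and 2.87 CPM in WT isotype and at 13.6, 13.9, 9.56, 20 and 16.5 CPM in WT combination libraries. Its B-depleted isotype libraries had a lowest value of 1.69, a median of 2.85 and a highest of 6.82 CPM, and the B-depleted combination libraries were at 7.25, 7.93, 4.69, 4.71 and 8.14 CPM. Isotype libraries varied widely, with a coefficient of variation of 64.4% in WT and 59.8% in B-depleted tumours, yet all 5 WT combination libraries were above them. Eomes rose by 2.01 ± 0.41 in WT tumours (adjusted p = 0.000862 by edgeR) and changed by 0.93 ± 0.40 in B-depleted ones (interval 0.11 to 1.76, adjusted p = 0.287 by edgeR).

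Runx3, which maintains the CD8 T-cell programme with T-bet, went in WT tumours from 30.6, 36.1, 10.7, 20.5 and 26.9 CPM to 48.9, 67.2, 50, 51.2 and 59.5 CPM. B-depleted isotype libraries spanned 12.2 to 32.9 CPM with a median of 20, and B-depleted combination libraries stood at 36.3, 38.9, 31.0, 34.1 and 44.8 CPM. The WT groups were apart, and 4 of 5 B-depleted combination libraries exceeded all B-depleted isotype libraries. The WT rise was 1.18 ± 0.26 (adjusted p = 0.00138 by edgeR) and the B-depleted change 0.79 ± 0.25 (interval 0.27 to 1.3, adjusted p = 0.164 by edgeR).

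Zeb2, a zinc-finger repressor that acts downstream of T-bet in terminal effector cells, read 374, 362, 166, 295 and 276 CPM in WT isotype and 649, 715, 481, 932 and 1090 CPM in WT combination libraries. B-depleted isotype libraries went from 208 through 285 to 430 CPM, and B-depleted combination libraries were at 361, 384, 327, 409 and 731 CPM, the last standing alone. It rose by 1.42 ± 0.27 in WT tumours (adjusted p = 0.00048 by edgeR), with a B-depleted change of 0.61 ± 0.25 (interval 0.08 to 1.13, adjusted p = 0.279 by edgeR). Without B-depleted combination replicate 5, which held the 731 CPM, that change was 0.32.

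Batf, an AP-1 family factor induced by T-cell receptor signals, stood at 2.37, 3.59, 1.23, 2.92 and 3.59 CPM in WT isotype and at 7.09, 8.82, 6.92, 11.7 and 10 CPM in WT combination libraries. Values in B-depleted isotype libraries were between 2.07 and 4.58 CPM with a median of 2.76, and those in B-depleted combination libraries were 3.99, 4.70, 4.24, 4.63 and 10.6 CPM. The WT groups were separate, and the B-depleted combination group again held 1 high library, replicate 5. Batf rose by 1.73 ± 0.31 in WT tumours (adjusted p = 0.000305 by edgeR) and changed by 0.98 ± 0.29 in B-depleted tumours (interval 0.36 to 1.59, adjusted p = 0.146 by edgeR). Without replicate 5 the B-depleted change was 0.59.

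Irf4, the partner of Batf on composite DNA elements, read 19.9, 14.9, 5.23, 6.41 and 9.10 CPM in WT isotype and 19.9, 38.4, 20.9, 30.4 and 35.0 CPM in WT combination libraries. Its B-depleted isotype libraries had values of 6.63 to 17.0 CPM, with a median of 11.1, and B-depleted combination libraries gave 11.1, 13.2, 8.63, 14.1 and 13.9 CPM. The WT groups met at 19.9 CPM, and no B-depleted combination library was above the B-depleted isotype range. The WT rise was 1.40 ± 0.33 (adjusted p = 0.002 by edgeR), and the B-depleted change was 0.17 ± 0.31 (interval -0.49 to 0.82, adjusted p = 0.837 by edgeR).

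Id3, an inhibitor of E-protein transcription factors, was the 1 factor that fell. WT isotype libraries read 62.9, 65.7, 54.7, 54.8 and 56.1 CPM and WT combination libraries 46.2, 39.0, 57.4, 32.1 and 30.2 CPM, so that 4 of 5 lay below every isotype library and replicate 3 lay among them. B-depleted libraries ran from 51.0 to 73.6 CPM (median 67.0) under isotype and read 61.9, 74.5, 67.0, 57.5 and 46.3 CPM under the combination, overlapping throughout. Id3 fell by 0.50 on the log2 scale in WT tumours (SE 0.15, adjusted p = 0.00862 by edgeR), and the change in B-depleted tumours was -0.07 ± 0.14 (interval -0.37 to 0.22, adjusted p = 0.839 by edgeR). Over the 21 libraries its log2 CPM correlated (Pearson) with summed hepatocyte and hepatoma markers at 0.76. The values were 0.86 for epidermis and -0.58 for T-cell markers. With group means removed the 3 values were 0.43, 0.69 and 0.02. Which cells held Id3 transcripts was not tested.

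Id2, the related inhibitor that favours effector cells, and Prdm1, which encodes the repressor Blimp-1 of terminal effector and plasma cells, had the smallest WT differences. Id2 was between 133 and 174 CPM in WT isotype and between 152 and 171 CPM in WT combination libraries (0.13 ± 0.07, interval -0.02 to 0.29, adjusted p = 0.136 by edgeR). Without WT isotype replicates 1 and 2, which stood apart in hepatoma markers, Id2 was called at 0.23 (adjusted p = 0.0131 by edgeR). Prdm1 was between 69.4 and 90.5 CPM and between 74.6 and 103 CPM in the same groups (0.22 ± 0.12, interval -0.03 to 0.47, adjusted p = 0.134 by edgeR). In B-depleted tumours their changes were -0.13 ± 0.07 and -0.30 ± 0.12 (adjusted p = 0.425 and 0.247 by edgeR), with 4 of 5 B-depleted combination libraries of Prdm1 below every B-depleted isotype library.

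Over the 9 factors the median change was 1.40 in WT tumours, where the median of all genes was 0.00, and 0.61 in B-depleted tumours, where it was 0.02. The 0 calls in B-depleted tumours by edgeR became 1 by DESeq2 (Tbx21, adjusted p = 0.0341), which called 2.21% of all genes, and remained 0 by limma voom. By edgeR 6 of 9 had an unadjusted p under 0.05 (5 higher, 1 lower), against 14.3% of all genes. For 5 tested factors (Tbx21, Eomes, Zeb2, Runx3 and Batf) every WT combination library was above every WT isotype library, as was so for 15% of all genes. In B-depleted tumours all 9 overlapped between the antibody groups, and 2.01% of all genes did not. All 7 WT calls held in each of 21 fits without 1 library. With a covariate for the sum of 4 Y-linked genes, which itself rose from 71.8 ± 13.6 to 199 ± 52.7 CPM (n = 5 each) in WT tumours, 0 of the 9 were called, Tbx21 standing at 1.32 (adjusted p = 0.187 by edgeR) and Zeb2 at -0.03. Calls over all genes fell to 0.404% in that fit, so the loss was general. The Y-linked sums of WT isotype (47.6 to 79.2 CPM) and WT combination libraries (135 to 250 CPM) did not overlap. The covariate thus follows the antibody groups in WT tumours, and that fit cannot separate it from the antibody response.

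**Figure D2:**
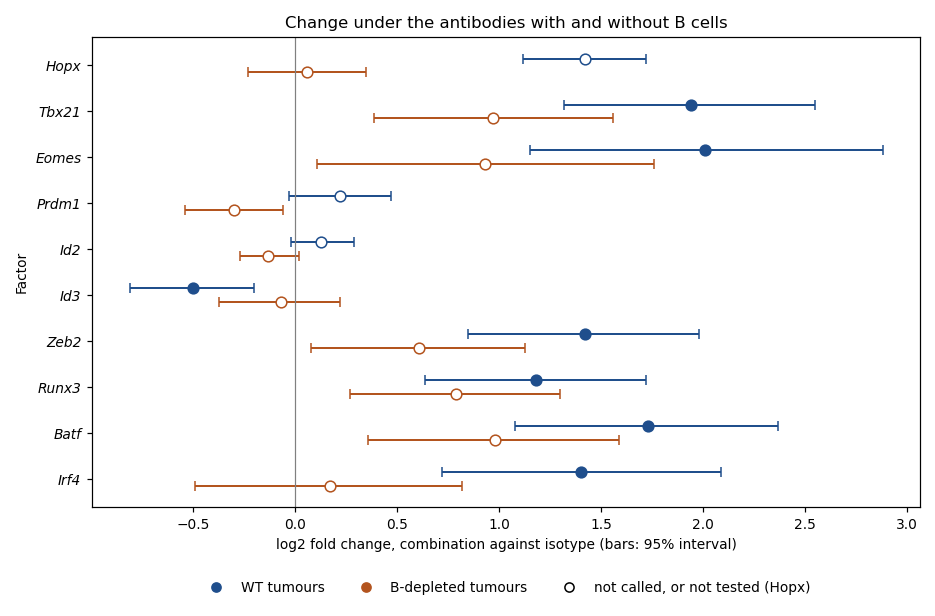
Change under the combination against isotype (x axis, log2 fold change with 95% interval) for the 10 genes (y axis) in WT (blue) and B-depleted tumours (brown). Filled points passed an adjusted p of 0.05 by edgeR: 7 in WT tumours, 0 in B-depleted ones. Hopx is drawn open, and marked as not tested, because it was chosen from these values and its p is not used.

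The difference between the 2 antibody responses was tested as an interaction, for which 0.0262% of all genes were called. None of the 9 factors passed by edgeR. The point values were -1.24 ± 0.45 for Irf4 (interval -2.18 to -0.29, adjusted p = 0.123), -1.08 ± 0.57 for Eomes (interval -2.27 to 0.11, adjusted p = 0.231), -0.96 ± 0.40 for Tbx21 (interval -1.81 to -0.12, adjusted p = 0.153) and -0.81 ± 0.37 for Zeb2 (interval -1.57 to -0.04, adjusted p = 0.175), all by edgeR. Runx3 was at -0.39 ± 0.36 (interval -1.14 to 0.35), Batf at -0.75 ± 0.42, Prdm1 at -0.52 ± 0.17, Id2 at -0.26 ± 0.10 and Id3 at 0.43 ± 0.20. At an unadjusted p under 0.05 there were 6 of 9 (5 lower, 1 higher), against 25.6% of all genes. DESeq2 called 1 of the 9 (Prdm1, adjusted p = 0.0474), near its share of 7.35% over all genes, and limma voom called 0.

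The interaction depended on the WT isotype libraries. Replicates 1 and 2 of that group had hepatocyte and hepatoma marker sums of 1680 and 1900 CPM, against 3810 to 5830 CPM in the other 3. They also held the 2 highest values of Irf4, Eomes, Id2, Prdm1, Zeb2, Runx3 and Id3 in the group. Leaving them out, a choice that rests on these same counts, therefore lowers the WT isotype mean of all these factors. Without these 2 libraries 4 factors were called by edgeR: Irf4 (adjusted p = 0.0172), Id2 (0.0266), Eomes (0.0352) and Prdm1 (0.0467). Zeb2, Runx3 and Id3 were not. In that fit 10.1% of all genes were called. Leaving out 1 library gave 1 call, Id3 without WT combination replicate 3 (adjusted p = 0.0387 by edgeR) or Zeb2 without B-depleted combination replicate 5 (adjusted p = 0.049 by edgeR). All-gene calls in these fits were 7.97% and 7.14%, so 1 of 9 is near the share over all genes.

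B-cell depletion by itself, under isotype antibody, was followed by no called factor. The 9 changes lay between -0.20 (Runx3) and 0.13 (Id3) with a median of 0.02, and 0% of all genes were called by edgeR. The isotype groups of all 9 overlapped, and those of 0.462% of all genes did not. At an unadjusted p under 0.05 there were 0 of 9, against 3.0% of all genes, and DESeq2 and limma voom also called 0 of the 9. The intervals were wide for the low and variable genes, for example -0.94 to 0.73 for Eomes and -0.58 to 0.62 for Tbx21, and narrow for Id2 (-0.12 to 0.17).

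Under the combination, B-depleted tumours held lower levels of 6 of the 9 factors and a higher level of Id3 than WT tumours. Irf4 was lower by the most, with all 5 B-depleted libraries (8.63 to 14.1 CPM) under all 5 WT libraries (19.9 to 38.4 CPM); it fell by 1.26 on the log2 scale (SE 0.33, adjusted p = 0.013 by edgeR). Eomes (-1.18 ± 0.40, adjusted p = 0.0357) and Tbx21 (-0.95 ± 0.29, adjusted p = 0.0222) were lower without overlap, and Id2, at 131 to 145 against 152 to 171 CPM, was lower by a small but non-overlapping step (-0.23 ± 0.07, adjusted p = 0.0265, all by edgeR). Zeb2 (-0.81 ± 0.27, adjusted p = 0.0306) and Prdm1 (-0.49 ± 0.12, adjusted p = 0.0112) were lower with 4 of 5 libraries under every WT library. Id3 was higher by 0.56 ± 0.15 (adjusted p = 0.0132 by edgeR), 4 of 5 libraries lying above all WT ones.

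Of the 2 factors that did not pass, Runx3 was at -0.59 ± 0.26 (adjusted p = 0.0847 by edgeR) although its groups were apart, and Batf at -0.66 ± 0.30 (adjusted p = 0.0969 by edgeR). The 7 of 9 called stand against 29.1% of all genes (13.5% lower, 15.5% higher), and the 5 tested factors lower without overlap (Irf4, Eomes, Tbx21, Id2 and Runx3) against 6.03%. The median was -0.66, with 0.00 over all genes. This comparison shares its 2 groups with the antibody responses, so it is the same data seen from the other side.

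These depletion calls sat near the threshold. Leaving out 1 library gave 3 calls without WT combination replicate 4 or B-depleted combination replicate 3, and 4 without WT combination replicate 2 or B-depleted combination replicate 1, 2 or 4. Over all genes 11.3% and 15.7% were called in the fits with 3, and 17.2% to 19.4% in those with 4. With all libraries the share was 29.1%, so the loss was general. Tbx21, Eomes, Id2 and Zeb2 were the ones lost, with highest adjusted p of 0.0539, 0.0953, 0.0638 and 0.102 by edgeR, while Irf4, Prdm1 and Id3 held in every fit. Without B-depleted combination replicate 5, Batf was called at -1.05 (adjusted p = 0.0065 by edgeR), and without WT isotype replicate 3 Runx3 was (adjusted p = 0.0425 by edgeR). Limma voom called 8 of 9, Batf added (adjusted p = 0.0423), with 29% of all genes. Without 3 B-depleted libraries that held B-lineage transcripts, a choice made after seeing the data, all 9 were called by edgeR (Runx3 at adjusted p = 0.029, Batf at 0.00401), with 40.7% of all genes. Without a filter on low counts 4 of 9 were called, with 8.45% of all genes, and with the Y-linked covariate 0, with 0.021%.

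Cell content moved with these factors, and in whole tumours fewer cells of a type cannot be told apart from less RNA per cell. All 17 T-cell marker genes rose in WT tumours (median 1.95), and their summed level went from 134 to 265 CPM in isotype libraries to 600 to 943 CPM in combination libraries. In B-depleted tumours 5 of 17 rose (median 1.09), the sums being 104 to 334 and 365 to 498 CPM, and under the combination 15 of 17 were lower in B-depleted tumours. The shares over all genes were 25% higher in WT tumours, 0.341% called in B-depleted tumours and 13.5% lower for depletion under the combination. No T-cell marker was at 0 in any library.

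Other cell types moved too. In WT tumours 9 of 9 macrophage markers rose (median 1.24; sums of 758 to 1560 and 1840 to 3620 CPM), as did 4 of 7 natural killer, 6 of 6 tested B-cell, 3 of 8 dendritic, 5 of 8 endothelial, 6 of 8 fibroblast, 1 of 6 skeletal muscle and 4 of 4 Y-linked genes, while 7 of 7 hepatocyte and hepatoma markers and 2 of 5 epidermis markers fell and 0 of 6 tested plasma-cell markers passed. In B-depleted tumours 0 of any of these lists passed by edgeR. Under the combination B-depleted tumours were lower in 8 of 9 macrophage, 3 of 7 natural killer, 6 of 6 B-cell, 4 of 6 plasma-cell, 5 of 8 dendritic, 1 of 8 endothelial, 1 of 8 fibroblast, 2 of 6 muscle and 4 of 4 Y-linked genes, and higher in 7 of 7 hepatocyte and hepatoma markers and 1 of 5 epidermis markers. Of all genes 25% were higher and 25% lower in WT tumours, and 13.5% were lower and 15.5% higher for depletion under the combination. The dendritic and muscle counts in WT tumours are near these shares. So are the endothelial, fibroblast and epidermis counts for depletion under the combination. The B-cell genes Ms4a1 and Cr2 were at 0 in 7 and 10 libraries. The part of each cell type in the changes of the 10 genes was not tested.

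B-depleted combination replicate 5 stood apart from its group. Its fibroblast markers summed to 25200 CPM against 2990 to 8940 CPM in the other 4, its macrophage markers to 2220 against 1060 to 1430 CPM, its Y-linked genes to 169 against 85.9 to 109 CPM and its B-cell markers to 29 against 12.9 to 18.9 CPM, while WT isotype libraries had 8.0 to 17.4 CPM of B-cell markers. Its T-cell markers, at 408 CPM, were inside the range of its group, as were its Hopx and Irf4 values, and its Tbx21, at 4.64 CPM, was the lowest of the group.

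**Figure D3:**
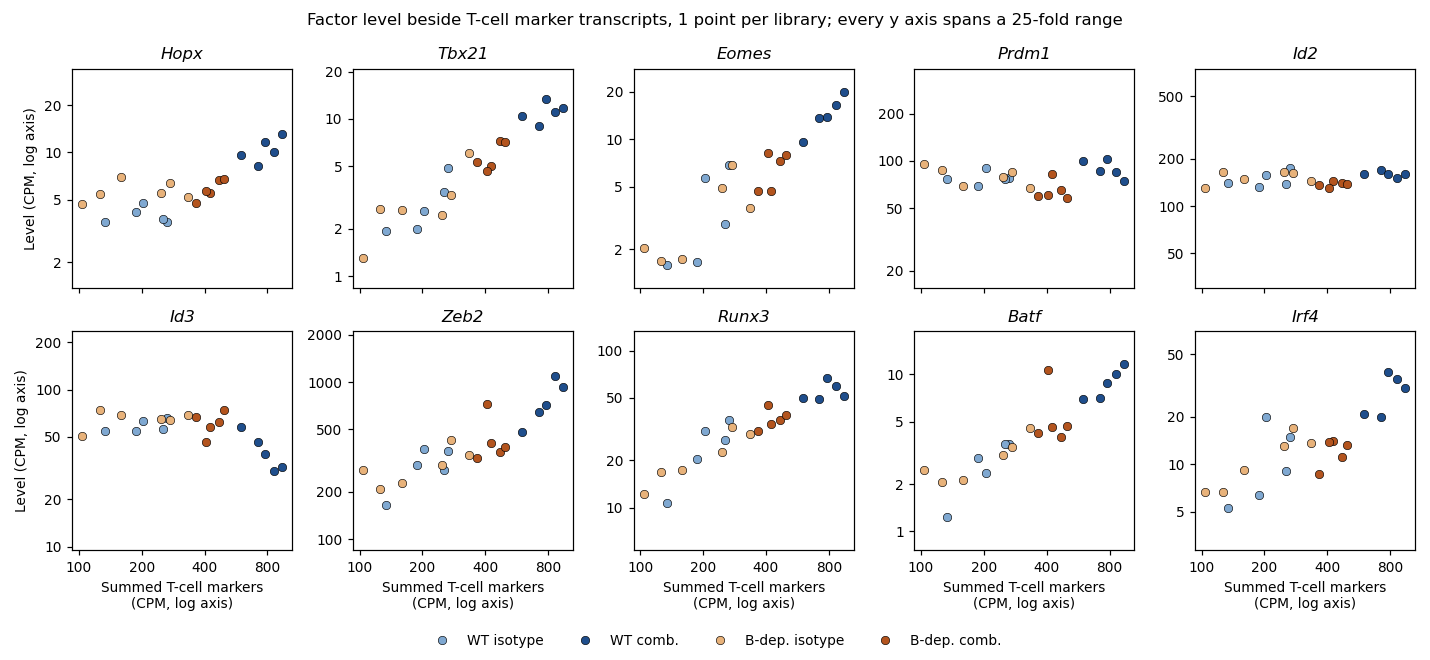
Level of each gene (y axis, CPM, log scale) against the summed CPM of 17 T-cell markers (x axis, log scale), 1 point per library, coloured by group. Tbx21, Eomes, Runx3 and Batf climb with the marker sum across all 4 groups, Hopx is flat below 400 CPM of markers, and the high Zeb2 and Batf point at 408 CPM is B-depleted combination replicate 5.

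Set against T-cell markers, the factors fell into different kinds. Per 100 CPM of summed T-cell markers, Tbx21 was at 1.39 ± 0.281 CPM in WT isotype, 1.45 ± 0.259 in WT combination, 1.51 ± 0.433 in B-depleted isotype and 1.35 ± 0.180 in B-depleted combination tumours (n = 5, 5, 6 and 5), the 4 groups overlapping. Eomes (1.71, 1.86, 1.66 and 1.51 CPM) and Batf (1.28, 1.13, 1.54 and 1.33 CPM) likewise overlapped in all 4 comparisons on this scale. Runx3 and Zeb2 were lower per marker transcript under the combination in WT tumours, at 0.621 and 0.686 of the isotype mean, with overlap. Natural killer marker sums also rose in WT tumours, from a mean of 30.0 to 81.4 CPM. Tbx21, Eomes and Runx3 correlated with these sums at 0.93, 0.94 and 0.95 over the 21 libraries (Pearson, log2 scale). With T-cell sums the values were 0.96, 0.92 and 0.93. Which of these cells held the transcripts was not tested.

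Hopx per 100 CPM of T-cell markers was 2.01 ± 0.573 in WT isotype, 1.35 ± 0.200 in WT combination, 3.23 ± 1.32 in B-depleted isotype and 1.35 ± 0.0482 CPM in B-depleted combination libraries. On this scale the 2 combination groups had nearly equal means (ratio 0.999), and B-depleted combination libraries (1.3 to 1.41) were all below B-depleted isotype libraries (1.56 to 4.54). The ordering of the groups therefore differs from that of Hopx CPM, where WT combination was alone at the top. Irf4 per marker transcript was 0.701 of the isotype mean in WT tumours, with overlap, and 0.510 in B-depleted tumours without overlap. The marker sums of B-depleted isotype and combination libraries were apart (104 to 334 and 365 to 498 CPM), while Hopx and Irf4 CPM overlapped. The gaps of both ratios in B-depleted tumours thus come from the marker sum.

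Id2, Id3 and Prdm1 were lowest relative to T-cell markers under the combination, at 0.283, 0.189 and 0.301 of the isotype mean in WT and 0.372, 0.387 and 0.314 in B-depleted tumours, all without overlap. The marker sums rose without overlap in WT (134 to 265 against 600 to 943 CPM) and in B-depleted tumours. A gene of steady level therefore gives such a gap by the marker sum alone. Zeb2 was also set against the 9 macrophage markers. Per 100 CPM of these it was 24.9 ± 5.69, 29.5 ± 2.66, 31.6 ± 3.23 and 29.4 ± 2.53 CPM in the 4 groups, WT isotype first, then WT combination and the B-depleted groups in the same order, with overlap in every comparison. Replicate 5 of the last group was still its highest library on this scale, at 33 CPM where the lowest was at 26.9. Batf per 100 CPM of macrophage markers ran from 0.226 ± 0.0611 in WT isotype to 0.367 ± 0.0713 in B-depleted combination tumours, with overlap in every comparison. A ratio to a marker sum is a description and does not assign transcripts to cells.

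**Figure D4:**
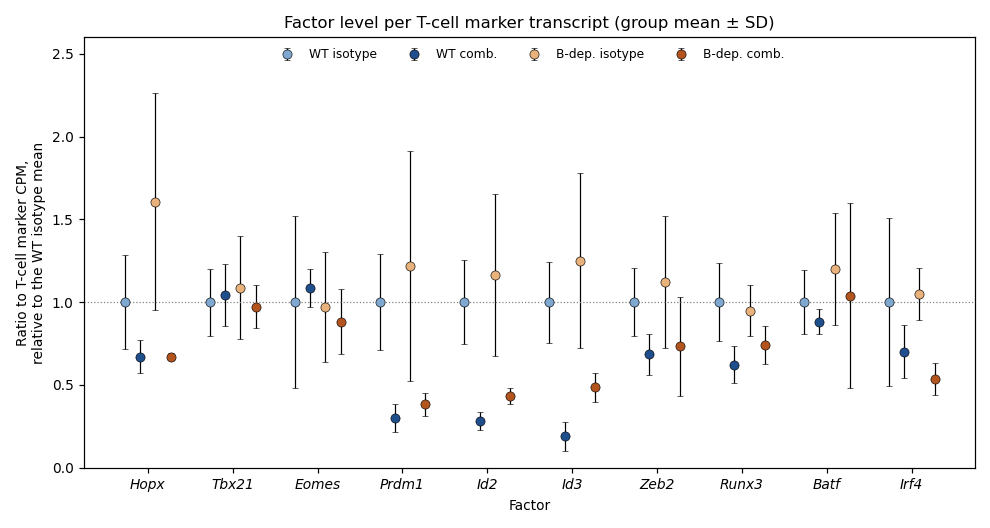
Ratio of each gene to summed T-cell markers in the 4 groups, as a multiple of the WT isotype mean (y axis, from 0; points are group means, bars SD, x axis the 10 genes). Tbx21, Eomes and Batf stay near 1 in all groups, Id2, Id3 and Prdm1 are low in both combination groups, and Hopx is highest in B-depleted isotype tumours.

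Other T-cell factors were read from lists of related genes, whose counts stand against the shares over all genes: 25% higher and 25% lower in WT tumours, 0.341% called in B-depleted tumours, and 15.5% higher and 13.5% lower for depletion under the combination. Of 12 naive and memory factors 6 rose and 1 fell in WT tumours (median 0.27), so that 7 of 12 called is near the 50% of all genes. Satb1, a chromatin organiser, rose by 1.74 ± 0.35, Ets1 by 0.73 ± 0.12 and Foxo1 by 0.64 ± 0.13, whereas Tcf7, which encodes the stem-like memory factor TCF-1, fell by 1.17 on the log2 scale (adjusted p from 0.000128 to 0.000734 by edgeR). In B-depleted tumours 0 of 12 passed, with Tcf7 at -0.55 ± 0.19 (adjusted p = 0.199) and Ets1 at 0.30 ± 0.11 (adjusted p = 0.221, both by edgeR). Under the combination B-depleted tumours had 4 lower, among them Satb1 (-1.30), Lef1 (-0.63) and Foxo1 (-0.61), and 1 higher, Tcf7 (0.73). Tcf7 averaged 101 CPM over all libraries, where Cd8a, the highest of the 17 T-cell markers, averaged 54.1 CPM. In both comparisons it moved in the direction of the 7 hepatocyte and hepatoma markers, and opposite to the T-cell markers. Which cells held its transcripts was not tested.

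Among 7 factors linked to exhaustion, 5 rose in WT tumours (median 0.71; 25% of all genes rose), including Nfatc1 (0.71 ± 0.10, adjusted p = 6.49e-05 by edgeR), Ikzf2, which encodes Helios (1.25 ± 0.29), Nr4a3 (1.17 ± 0.35) and Nr4a2 (0.67 ± 0.20). The 2 not called in WT tumours were Tox (0.08 ± 0.29) and Nr4a1 (-0.33 ± 0.23). None passed in B-depleted tumours, where Nr4a2 was at 0.80 ± 0.19 (adjusted p = 0.0706) and Nfatc1 at 0.33 ± 0.10 (adjusted p = 0.128, both by edgeR). Nfatc1 (-0.46) and Ikzf2 (-1.04) were lower in B-depleted than in WT tumours under the combination. Of 8 helper and regulatory lineage factors 3 rose (Gata3 by 1.78 ± 0.31, Stat4 by 1.48 ± 0.33 and Maf by 0.64 ± 0.11) and 3 fell, Ahr (-0.63 ± 0.16) among them, where 25% of all genes went each way, with 0 passing in B-depleted tumours (Bhlhe40 at -0.35 and Gata3 at 0.57). Under the combination 4 of these 8 were lower in B-depleted tumours: Gata3 (-1.17), Stat4 (-1.13), Maf (-0.38) and the regulatory T-cell factor Foxp3 (-1.78).

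Partners and relatives of the 10 genes gave 8 rises and 4 falls of 15 in WT tumours (median 0.51), against 25% of all genes in each direction. Irf8, a relative of Irf4, rose by 0.77 ± 0.11, the myeloid factor Spi1, which also pairs with Irf4, by 1.23 ± 0.24, Irf1 by 0.86 ± 0.18 and Runx2 by 0.57 ± 0.10. In B-depleted tumours 0 of 15 passed (0.341% of all genes did), Spi1 being at 0.58 and Batf2 at 0.54. Under the combination Irf8 (-0.48), Runx2 (-0.39) and Jun (-0.50) were lower in B-depleted tumours, and the E protein gene Tcf3 (0.31) and the Id2 and Id3 relative Id1 (0.85) were higher.

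Genes of killing and migration known to lie downstream of T-box and Runx factors went with Tbx21 and Eomes in WT tumours: 13 of 15 tested rose (median 2.07), for example the chemokine receptor Cxcr6 (2.52 ± 0.26), the granule protein Nkg7 (2.20 ± 0.26), granzyme B (Gzmb, 2.18 ± 0.24) and perforin (Prf1, 1.83 ± 0.20). The 2 not called were Klrg1 (0.16 ± 0.45) and Cx3cr1 (0.30 ± 0.32), and S1pr5 did not pass the filter on low counts. In B-depleted tumours 6 of 15 rose (median 1.33), with Prf1 at 1.62 ± 0.19 (adjusted p = 0.00117 by edgeR), Nkg7 at 1.44, Gzmb at 1.35 and Cxcr6 at 1.35. There Klrg1 was at -1.36 ± 0.48 (adjusted p = 0.207 by edgeR) and Cx3cr1 at -0.09 ± 0.31, neither called. Under the combination 8 of 15 were lower in B-depleted tumours, those of smallest p being Cxcr3 (-1.90), Il12rb2 (-1.24), Cxcr6 (-1.04) and Gzmb (-0.96). In none of these 5 lists was a gene called for the interaction by edgeR.

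**Figure D5:**
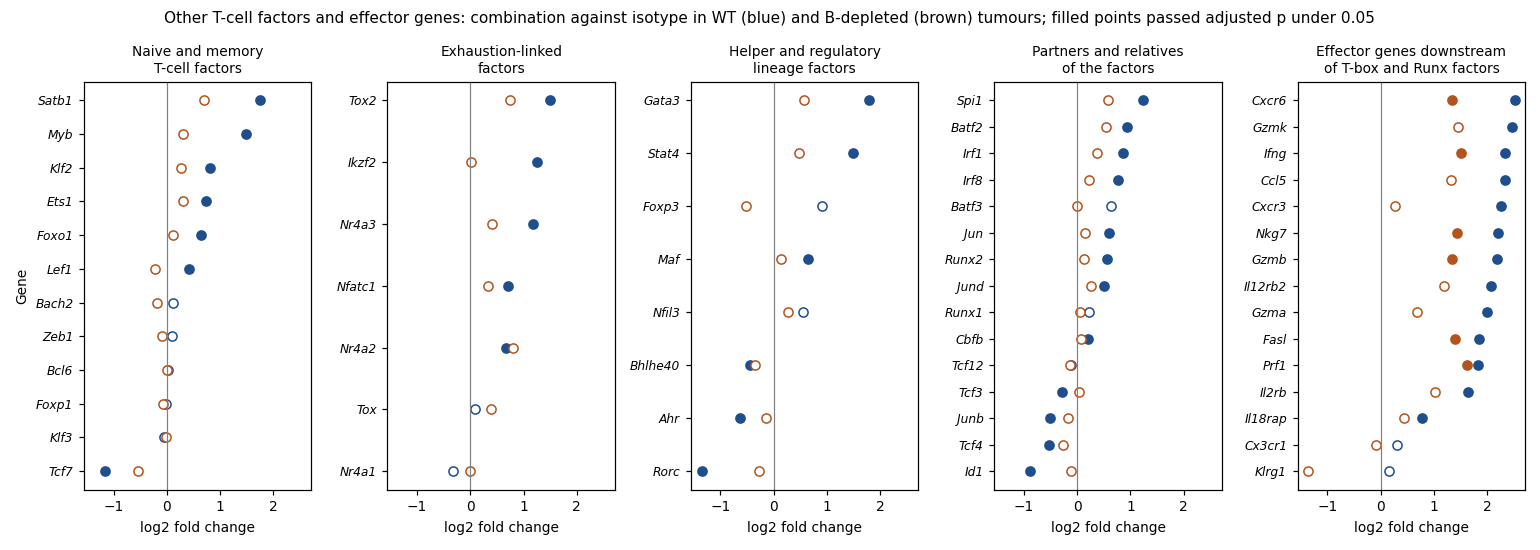
Change under the combination (x axis, log2 fold change) of genes in 5 lists (y axis, 1 gene per row) in WT (blue) and B-depleted tumours (brown), with filled points at an adjusted p under 0.05 by edgeR. Filled brown points occur only among the effector genes, 6 of 15, while the 4 lists of factors hold 0 in B-depleted tumours.

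Genes whose pattern was most like that of each factor were ranked by Pearson correlation of log2 CPM over the 21 libraries among 13274 genes, as a description. These values share libraries and follow the group differences, so they carry no p. For Hopx the 6 nearest were Coa3 (0.885), Rnf166 (0.882), Plgrkt (0.880), Pim2 (0.879), M6pr (0.870) and Lipa (0.870), none of them in the lists above. With group means removed the 6 nearest to Hopx were others, Ap3d1 (0.760), Dtx4 (0.738), Atg10 (0.729), Tmem229a (0.722), Tmem35b (0.721) and Smg1 (0.712).

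For 7 of the other 9 factors the nearest gene lay closer than that of Hopx, the exceptions being Id2 and Prdm1. Tbx21 lay nearest to St14 (0.973) and Spn (0.968), Eomes to the T-cell surface gene Thy1 (0.967) and to Anxa6 (0.966), and Runx3 to Ptk2b (0.970) and Trpm2 (0.968). Zeb2 lay nearest to Apbb1ip and Trps1 (both 0.988), Batf to Slc11a1 (0.966), a phagocyte metal transporter, and Gcnt1 (0.965), and Irf4 to Ikzf2 (0.963) and the chemokine receptor gene Ccr2 (0.961). Id3 lay nearest to Agrn (0.960) and Trip6 (0.953), Id2 to Aida (0.827) and Samd9l (0.803), and Prdm1, with the weakest likeness of the 10, to Bnip3l (0.733) and Arntl (0.704).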

How the data were processed

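Messenger RNA libraries of 21 tumours (TruSeq stranded mRNA kit, per the labels' protocols) entered as raw read counts per gene. The deposited table holds whole-number counts for 55487 Ensembl identifiers, not normalized by the authors, with 1 column per library and 0 other columns. The genome GRCm38, STAR 2.7.2a and cutadapt 2.4 are named per the submitters' processing notes. Not given in the sources used here are the counting program, its annotation release and its strand setting. Symbols came from GENCODE M21, which matched 55227 identifiers. The 260 without a symbol, with 0.0183% of all counts, stayed in the fits.

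From these counts, R 4.3.3 with edgeR 4.0.16 was used: filterByExpr kept 19061 genes, TMM factors ran from 0.953 to 1.029, and the robust quasi-likelihood fit held all 21 libraries in 4 groups without covariates. The 5 comparisons were the antibody response of WT tumours, that of B-depleted tumours, the difference between them (interaction), and B-depleted against WT tumours within each antibody arm. Genes with an adjusted p under 0.05 (Benjamini-Hochberg, across all genes of a comparison) count as called. Errors of log2 fold changes are SE, those of levels SD, and intervals are 95% intervals of the fold change. CPM are counts scaled to 1 M of the library total, so depth sets their precision, and the self-test of the fit was run on simulated data. DESeq2 1.42.0, limma 3.58.1 (voom), RLE size factors, no filter, only the groups compared, a replicate block, a Y-linked covariate and left-out libraries were alternatives. The fit without 3 B-depleted libraries that held B-lineage transcripts was chosen after seeing the data. The fit without WT isotype replicates 1 and 2 also rests on the data, since they were left out for standing apart in these same counts. Of 45 pairs of libraries within groups, none was a repeat (lowest chi-square per degree of freedom 6.99).

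The members, lists and tests were chosen with earlier results of these data known, and no measured value is recorded as the reason for the 9 factors other than Hopx. The genes named are the 10 members; of each list up to 4 called genes of smallest p, or 2 as values where none was called; and the nearest genes by correlation with a mean of at least 1 CPM, 6 for Hopx and 2 for each other factor. Predicted genes, pseudogenes and receptor segments were left out of that ranking. Also named are the genes of the exhaustion and effector lists that were not called in WT tumours. The values of 1 B-cell marker gene are not reported here.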

Additional observations from a re-analysis of the deposited data

Results flagged for a closer look

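Each factor was searched in each of the 4 groups for a library far from the others of its group, 40 groups in all, of which chance alone would mark about 1 in 20. There were 3 such libraries, all in the B-depleted combination group. Zeb2 stood at 731 CPM in replicate 5, where the other 4 libraries lay between 327 and 409 CPM. Batf was at 10.6 CPM in the same library and between 3.99 and 4.70 CPM in the other 4. This library also had the highest macrophage, fibroblast, Y-linked and B-cell marker sums of its group, the last at 29 CPM against 12.9 to 18.9 CPM in the other 4 and 8.0 to 17.4 CPM in WT isotype libraries. The part of these in both values was not tested. Prdm1 was at 82.0 CPM in replicate 4, with the others between 58.3 and 64.9 CPM.

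The Hopx response differed between WT and B-depleted tumours by -1.36 on the log2 scale. Hopx was listed for this difference, so the value describes these libraries and is no independent result. With 1 library left out at a time it ran from -1.43 to -1.29.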

How the results depend on the processing

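The counts of called factors among the 9 were 7, 0, 0, 7 and 0 for the WT response, the B-depleted response, depletion under isotype, depletion under the combination and the interaction. With the Y-linked covariate, which follows the antibody groups in WT tumours, the WT and combination counts were 0. DESeq2 gave 1 for the B-depleted response and 1 for the interaction, no filter on low counts gave 4 for depletion under the combination, and leaving out the 2 WT isotype libraries gave 4 for the interaction and 8 for the WT response (Id2 added), and limma voom gave 8 for depletion under the combination (Batf added). In the same order, the shares over all genes were 2.21%, 7.35%, 8.45%, 10.1%, 49.3% and 29%. Without 3 B-depleted libraries with B-lineage transcripts, added after seeing the data, the B-depleted response had 2 (Tbx21 and Runx3) and depletion under the combination 9. In that fit 2.07% and 40.7% of all genes were called. The planned fit without B-depleted libraries that hold B-cell transcripts leaves out B-depleted combination replicate 5 alone. Leaving out 1 library gave 7 in every fit for the WT response, 0 to 1 for the B-depleted response (1 without B-depleted isotype replicate 3), 0 for depletion under isotype, 3 to 8 for depletion under the combination and 0 to 1 for the interaction. Without B-depleted isotype replicate 3, 0.927% of all genes were called for the B-depleted response. For depletion under the combination the share over all genes ran from 11.3% to 39.3%. The cause of these moves was not tested.

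Same-numbered libraries did not pair: the correlation of their deviations had a median of 0.025 over 30 pairs by title number and -0.03 over 27 pairs by description code, with 9 and 7 over 0.1. With a replicate block by title number the counts were 7, 0, 0, 7 and 0. With a replicate block by description code they were 7, 0, 0, 6 and 0, Eomes being lost.

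Single values changed sign as follows. With the Y-linked covariate, Zeb2 was at -0.03 in WT tumours; Hopx was at -0.02, Id3 at 0.09 and Irf4 at -0.27 in B-depleted tumours; Tbx21 was at -0.05 and Batf at -0.04 for depletion under isotype; Batf was at 0.13 for depletion under the combination; and Eomes was at 0.14, Zeb2 at 0.10, Runx3 at 0.28 and Batf at 0.17 for the interaction. All other sign changes but 1 were in depletion under isotype, where values lay near 0. Without the 3 B-lineage libraries Tbx21 was at -0.40 and Batf at -0.18 there, and Id3 at 0.01 in the B-depleted response. Limma voom gave -0.08 for Tbx21 and 0.05 for Irf4. The title block gave 0.03 for Eomes, -0.03 for Prdm1 and 0.12 for Irf4, and the code block 0.03 for Irf4. Without the 2 WT isotype libraries Eomes was at 0.75, Runx3 at 0.16 and Irf4 at 0.65. With 1 library left out the ranges were -0.27 to 0.25 for Tbx21, -0.42 to 0.22 for Eomes, -0.03 to 0.09 for Prdm1, -0.01 to 0.08 for Id2, -0.07 to 0.19 for Batf and -0.19 to 0.30 for Irf4.

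Depth limits the low genes: Batf, Eomes and Tbx21 rested on as few as 21, 27 and 25 counts in a library.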
